A study of Mus musculus with 6 samples.

Results

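Regulators of G protein signalling (RGS proteins) were followed in hepatocytes, the cells that make up most of the liver's mass, by RNA sequencing of 2 mouse genotypes. The 7 RGS genes are Rgs2, Rgs3, Rgs5, Rgs12, Rgs14, Rgs16 and Rgs19, found by symbol among the 55487 gene rows of the count files. The family was selected on the measured difference in Rgs2 between the genotypes, together with the levels of the other 6 genes in these libraries, so the C75S against WT values of the 7 genes are given as a description, without a test. AEG-1, the protein made from Mtdh, is a membrane protein of the endoplasmic reticulum, and the C75S allele puts a serine in place of a cysteine that can carry a palmitoyl group. One group was homozygous for AEG-1-C75S and the other was wild type (WT) at AEG-1, both bred from heterozygous parents. The mice were adults of 6 to 8 weeks, RNA was taken 48 h after the hepatocytes were isolated, and all samples carried the treatment label Control. Each group had 3 libraries, and nothing in the labels says whether these came from separate mice, so the spread between them may be technical in part.

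An RGS protein binds the active, GTP-loaded alpha subunit of a heterotrimeric G protein and speeds up GTP hydrolysis, which ends the signal from a G protein-coupled receptor. The members fall into subfamilies by the sequence of their RGS domain. Rgs2, Rgs3, Rgs5 and Rgs16 belong to the small R4 proteins, Rgs12 and Rgs14 to the R12 proteins and Rgs19 to the RZ proteins. Rgs12 and Rgs14 also hold Ras-binding and GoLoco domains. Rgs2 prefers the Gq class, through which alpha-1 adrenergic, vasopressin and angiotensin receptors raise calcium in hepatocytes. The others act mainly on Gi, and Rgs3, Rgs5 and Rgs16 act on Gq as well.

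The libraries held 16944723 to 21044292 reads assigned to genes, with C75S replicate 1 the shallowest. Levels are given as CPM (counts per 1000000 reads on genes, with library sizes scaled by TMM), on which 3 counts corresponded to 0.142 to 0.172 CPM. Mtdh itself was at 199.8 ± 10.5 CPM in C75S against 196.8 ± 5.18 CPM in WT (SD, n = 3 each). A gene-level count cannot read the codon that differs, so this value does not check the genotype labels. The tissue label was checked against 12 hepatocyte markers, all of which passed the filter on low counts. They summed to 76951.3 to 90437.1 CPM in C75S and 85125.5 to 93514.9 CPM in WT. By fold change 5 were higher and 7 lower in C75S. At an edgeR adjusted p under 0.05, 2 were higher and 0 lower, where 1.74% and 1.37% of all tested genes were. Fgb, a fibrinogen chain, rose from 1320 ± 53.6 to 1650 ± 98.5 CPM (SD, n = 3 each, edgeR adjusted p = 0.00112). Cyp2e1, a cytochrome P450, rose from 92.0 ± 10.5 to 113.6 ± 3.64 CPM (SD, n = 3 each, edgeR adjusted p = 0.00908). With WT replicate 3 left out, Cyp2e1 no longer passed (edgeR adjusted p = 0.065). Of the markers of other liver cells, the 12 of Kupffer cells and leukocytes summed to 1.78 to 2.03 CPM in C75S and 1.41 to 2.56 CPM in WT.

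Rgs2 (ENSMUSG00000026360, protein coding) lies on the minus strand of chromosome 1 in GRCm38, from 143999338 to 144004161. Its promoter is shown with that of Cdc73, a neighbour on the same strand and, of the genes compared, the one whose values across the libraries came closest to those of Rgs2. Each sequence is the 250 bases upstream of the RefSeq start (GRCm38.p6), at chr1:144004150-144004399 for Rgs2 and chr1:143702894-143703143 for Cdc73, both on the minus strand. Capitals mark matches, on either strand, to the core of the cAMP response element, TGACG, and to the CCAAT box. The full cAMP response element TGACGTCA, which contains the core, was searched as well, as were the TATA box in the form TATAAA and the E-box in the form CACGTG.
Rgs2: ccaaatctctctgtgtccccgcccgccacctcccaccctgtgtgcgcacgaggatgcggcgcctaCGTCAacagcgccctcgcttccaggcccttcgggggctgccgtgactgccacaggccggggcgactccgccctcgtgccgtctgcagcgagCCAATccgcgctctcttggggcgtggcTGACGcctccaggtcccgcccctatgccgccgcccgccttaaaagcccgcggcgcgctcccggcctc
Cdc73: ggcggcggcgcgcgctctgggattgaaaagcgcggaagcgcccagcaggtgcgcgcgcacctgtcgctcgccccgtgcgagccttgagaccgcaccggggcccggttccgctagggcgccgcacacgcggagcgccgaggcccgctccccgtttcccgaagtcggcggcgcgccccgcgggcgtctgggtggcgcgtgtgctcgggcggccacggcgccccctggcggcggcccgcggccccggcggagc

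In the Rgs2 promoter TGACG was found at 2 places, beginning 185 and 67 bases before the start, and CCAAT at 1 place, 94 bases before it. The Cdc73 promoter held none of the 5 motifs. TGACG was present in 17.8% and CCAAT in 33.8% of all 32851 RefSeq promoter windows of this length, so neither is rare. The full element TGACGTCA, present in 1.55% of windows, was in no window of the 6 members that had a promoter record. Among the other members CCAAT was found once each for Rgs16 and Rgs5, at 68 and 67 bases before the start. TGACG was found in 1 of the 2 Rgs12 windows, and TATAAA in both Rgs3 windows. Rgs2 had a GC content of 72.4% and Cdc73 one of 80.4%, against a median of 52.4% over all windows. These matches describe the letters only.

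Rgs2 transcript was lower in hepatocytes carrying the mutant AEG-1, at 0.54 times its WT level. Its level was 19.4, 18.4 and 21.7 CPM in C75S replicates 1 to 3 and 34.2, 41.4 and 34.3 CPM in WT replicates 1 to 3. The highest C75S library thus lay below the lowest WT library, and WT replicate 2 stood above the other two WT libraries. The means were 19.8 ± 1.70 CPM in C75S and 36.6 ± 4.11 CPM in WT (SD, n = 3 each). On the log2 scale C75S minus WT came to -0.89 (SE 0.09). Among all 12741 tested genes, 63 had a lower fold change. Rgs2 was chosen on this contrast, so its place in that order is a description only. The Rgs2 values rest on 337 to 849 reads per library, for which counting alone gives a relative error of 3.43% to 5.45%. Leaving out each library in turn gave log2 fold changes between -0.96 and -0.79, the smaller size without WT replicate 2.

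Rgs12 was the second most abundant of the 7 genes by CPM. Rgs12 (chromosome 5, 34949445 to 35039644, plus strand) encodes a large scaffold with PDZ, phosphotyrosine-binding and GoLoco domains. Its C75S libraries were at 9.47, 8.68 and 8.18 CPM and its WT libraries at 10.4, 9.41 and 11.3 CPM. The groups overlapped, because WT replicate 2 lay just under C75S replicate 1. The log2 fold change was -0.24 (SE 0.13), from means of 8.78 ± 0.65 and 10.4 ± 0.93 CPM (SD, n = 3 each). Its exons overlap those of the antisense gene Gm43791 by 467 bp, but that gene had 0 counts in all libraries on its own strand.

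Rgs19, also called GAIP, acts on Gi and carries a string of cysteines near its amino terminus that is palmitoylated. Rgs19 (chromosome 2, 181688419 to 181693977, minus strand) was at 3.10, 2.23 and 2.19 CPM in C75S against 1.90, 1.66 and 1.84 CPM in WT. All C75S libraries lay above all WT libraries, and C75S replicate 1 stood well above the other two. The log2 fold change was 0.47 (SE 0.26), from means of 2.51 ± 0.51 and 1.80 ± 0.13 CPM (SD, n = 3 each). This estimate was 0.30 without C75S replicate 1, the lowest over the alternatives tried. With 34 to 54 reads per library, counting alone gives a relative error of 13.6% to 17.1%.

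The remaining R4 genes were low. Rgs5 (chromosome 1, 169655501 to 169695813, plus strand), known as a marker of pericytes and vascular smooth muscle, had 23 to 30 reads per library. It was at 1.72, 1.38 and 1.55 CPM in C75S against 1.33, 1.46 and 1.12 CPM in WT, and the groups overlapped. The log2 fold change of Rgs5 was 0.24 (SE 0.31). Rgs16 (chromosome 1, 153740349 to 153745468, plus strand), whose liver transcript is known to respond to feeding and to glucose, had 18 to 29 reads per library. It was at 1.32, 0.996 and 1.50 CPM in C75S against 1.38, 1.07 and 0.873 CPM in WT, again overlapping. The log2 fold change of Rgs16 was 0.19 (SE 0.35). For both genes the standard error exceeded the estimate.

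Pericyte and stellate cell markers were measured beside Rgs5. The 12 markers summed to 57.9 to 74.5 CPM in C75S and 72.2 to 93.7 CPM in WT, most of it from Reln. The markers differed in level. In all 6 libraries together Pdgfrb had 13 reads, Notch3 5, Cspg4 2 and Acta2 428, and Rgs5 had 169. Of the 5 tested markers, 2 were higher and 3 lower in C75S by sign, with a median log2 fold change of -0.05. Acta2, smooth muscle actin, was the 1 called gene of the list, where 3.11% of all tested genes were called. Acta2 rose from 2.62 ± 0.53 to 4.65 ± 0.30 CPM (SD, n = 3 each, edgeR adjusted p = 0.0255). It lost its call in 4 of the 12 alternatives, with adjusted p up to 0.116. In bulk RNA, fewer cells of a type and less transcript per cell cannot be told apart. The part of other cell types in the Rgs5 values was not tested.

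Rgs3 and Rgs14 were too low for a comparison. Rgs3 (chromosome 4, 62559847 to 62704001, plus strand), which is made in long and short forms, had 7, 8 and 4 reads in the C75S libraries and 15, 10 and 1 in the WT libraries. The WT libraries alone spanned the whole range, so a difference was not detectable at this depth. Rgs14 (chromosome 13, 55369732 to 55384687, plus strand), a partner of Rgs12 in the R12 subfamily best known from neurons and lymphoid cells, had 0 reads in all 6 libraries on either strand. A count of 0 allows up to 0.142 to 0.172 CPM per library, counting error only.

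**Figure D1:**
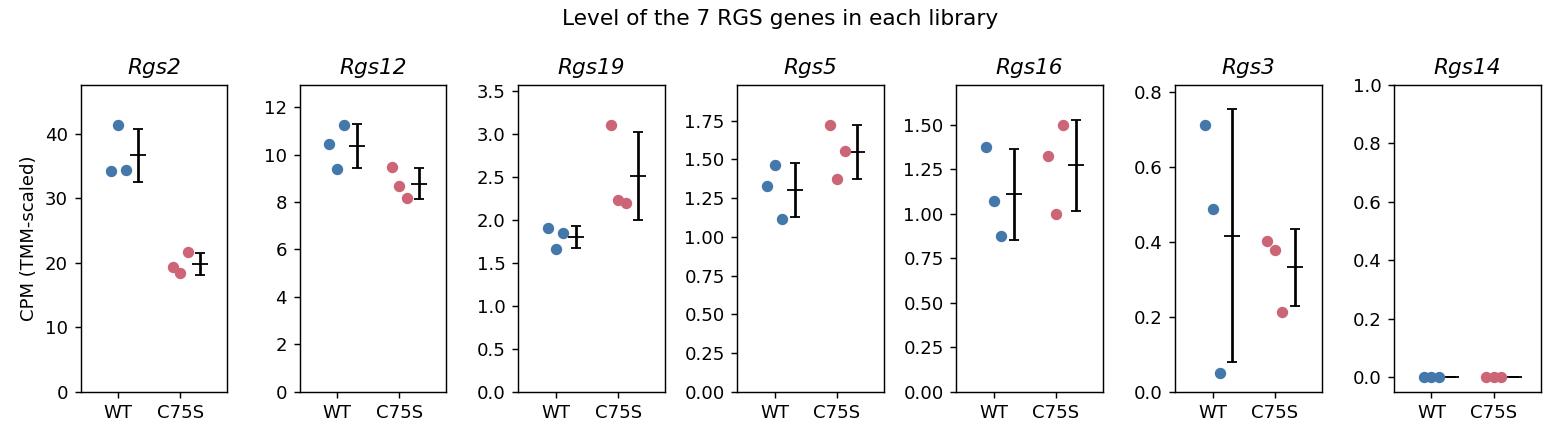
CPM on TMM-scaled library sizes (vertical axes, each with its own range) of the 7 RGS genes in the 3 WT (blue) and 3 C75S (red) libraries, 1 point per library, with the mean and SD in black. Rgs2 separates the groups widely, at 18.4 to 21.7 CPM against 34.2 to 41.4 CPM. Rgs19 separates them narrowly, and the other genes overlap or are at 0.

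Of the 7 genes, 6 had at least 1 read and 5 passed the filter. In the fit across all genes, 1 of these 5, Rgs2, had an adjusted p under 0.05, where 3.11% of all tested genes did. The groups did not overlap in 2 of the 5, where 18.0% of all tested genes showed no overlap: in Rgs2 the C75S libraries were lower, as in 8.96% of all tested genes, and in Rgs19 higher, as in 9.02%. Both counts use the contrast through which the family was chosen and are descriptions only. The fold changes went in both directions, with Rgs2 and Rgs12 at negative values and Rgs5, Rgs16 and Rgs19 at positive ones. Each kept its sign in all 12 alternatives.

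To compare genes with each other, reads were scaled by the summed exon length of each gene to TPM (transcripts per 1000000). In WT the mean TPM ran from Rgs2 at 29.9 ± 3.33 through Rgs12 at 3.61 ± 0.32, Rgs19 at 2.39 ± 0.17, Rgs16 at 1.40 ± 0.33 and Rgs5 at 0.85 ± 0.12 to Rgs3 at 0.11 ± 0.09 (SD, n = 3). In WT no neighbours in this order overlapped between libraries. In C75S Rgs2 stayed first at 16.2 ± 1.06 TPM, and Rgs19 (3.35 ± 0.78) and Rgs12 (3.08 ± 0.32) overlapped in the next place. The order of Rgs16 (1.61 ± 0.30), Rgs5 (1.01 ± 0.13) and Rgs3 (0.09 ± 0.03) was as in WT. The length is that of all annotated exons together, which lowers the TPM of genes with many forms, such as Rgs3 and Rgs12.

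Rgs2 made up most of the RGS transcripts in these hepatocytes. Over the 21 canonical mouse genes Rgs1 to Rgs22, of which 14 are not among the 7, it took 70.2%, 76.2% and 73.2% of the summed TPM in WT replicates 1 to 3. The share was 55.8%, 59.7% and 61.7% in C75S replicates 1 to 3. The summed TPM of the family was 39.97, 44.3 and 38.1 in WT and 29.2, 25.3 and 27.8 in C75S. The lower family total in C75S contains the Rgs2 difference and is not independent of it. Of the 14 other genes, 3 passed the filter (Rgs7, Rgs11 and Rgs20), and 0 of these had an adjusted p or an unadjusted p under 0.05 in edgeR, where 13.4% of all tested genes had an unadjusted p under 0.05. The most abundant was Rgs11, a partner of the beta subunit Gnb5, at 1.55 ± 0.25 CPM in C75S against 1.59 ± 0.30 CPM in WT (SD, n = 3 each). Rgs14 and 6 of the 14 other genes had 0 reads in every library.

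**Figure D2:**
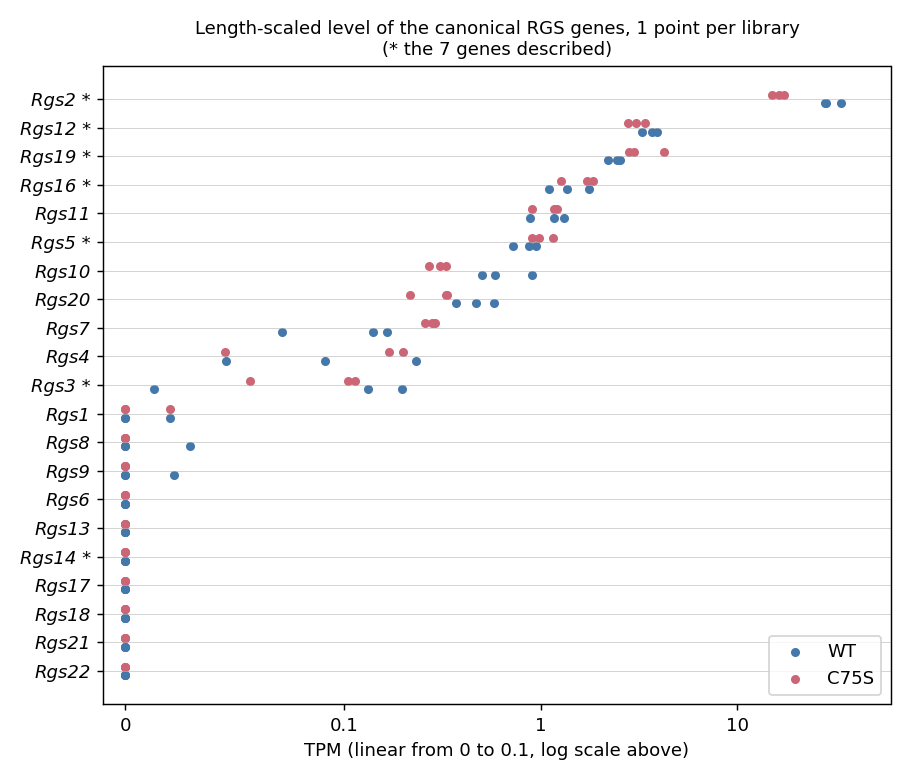
TPM (horizontal axis, linear up to 0.1 and log scale above) of the 21 canonical RGS genes, ordered by mean, with 1 point per library in blue for WT and red for C75S. Rgs2 is highest in all 6 libraries, at 15.1 to 33.7 TPM, and 7 genes are at 0 throughout.

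Rgs2 lies in a cluster of R4 genes on chromosome 1, and it was the expressed one. Within 1 Mb of its start, Rgs13, Rgs21 and Rgs18 had 0 reads in all libraries and Rgs1 had 2. These are genes of lymphoid, myeloid and taste cells. On the other side lay Uchl5, Trove2, Glrx2, B3galt2 and Cdc73, of which B3galt2, a galactosyltransferase, had 0 reads in all libraries. Cdc73, a subunit of the PAF1 complex that travels with RNA polymerase II, ended 296.4 kb from the near end of Rgs2. It was lower in C75S by a similar amount, at 24.3 ± 0.32 CPM against 44.3 ± 2.03 CPM (SD, n = 3 each), or -0.86 on the log2 scale (SE 0.07). For the tested genes in between no difference was detected. Uchl5, a deubiquitinase of the proteasome, was at -0.02 on the log2 scale (SE 0.08; edgeR adjusted p = 0.945). Trove2, which encodes the Ro60 RNA-binding protein, was at -0.18 (SE 0.10; edgeR adjusted p = 0.482). Glrx2, a mitochondrial glutaredoxin, was at -0.10 (SE 0.09; edgeR adjusted p = 0.696). In all, 7 of the 20 annotated genes in this window could be tested, and 2 were called, Cdc73 and Rgs2 itself. The window is centred on Rgs2, which was chosen for its difference, so its own call was fixed in advance. Of the other tested genes Cdc73 alone was called, where 3.11% of all tested genes were called.

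**Figure D3:**
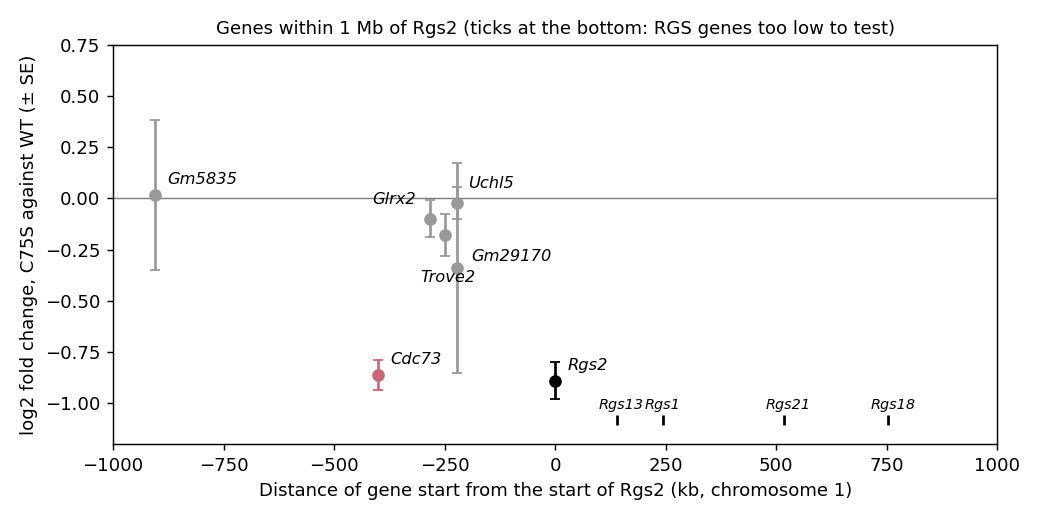
Log2 fold change of C75S against WT with its SE (vertical axis) for the tested genes within 1 Mb of Rgs2, by distance of gene starts in kb (horizontal axis), with untested RGS genes as ticks at the bottom. Rgs2 (-0.89) and Cdc73 (-0.86) sit apart from Uchl5, Trove2 and Glrx2 between them.

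The genes with the pattern most like that of Rgs2 were sought among 9634 tested genes of at least 5 CPM. Likeness was the root mean square difference between log2 CPM values over the 6 libraries, each gene centred on its own mean. The closest was Cdc73 at 0.11, followed by Cidec at 0.11, Cela1 at 0.12, Bmf at 0.13 and Fezf1 at 0.14, against a median of 0.46 over all candidates. Cidec is a lipid droplet protein, Cela1 an elastase, Bmf a pro-apoptotic BH3-only protein and Fezf1 a zinc finger transcription factor. Their log2 fold changes were -0.86 for Cdc73, -0.83 for Cidec, -0.69 for Cela1, -0.73 for Bmf and -0.72 for Fezf1. In Cdc73, Cela1 and Bmf, as in Rgs2, WT replicate 2 was the highest library. The measure includes the genotype difference itself, so these values are a description, with no test.

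Genes that work with RGS proteins were taken from 9 lists of G protein signalling, 169 genes in all, of which 103 could be tested. Of these, 5 were called, 1 higher and 4 lower in C75S, where 1.74% of all tested genes were called higher and 1.37% lower. The median log2 fold change over the 103 was 0.03, against 0.00 over all genes.

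Among the receptors, which activate the G proteins that RGS proteins switch off, 3 of 19 tested genes were called lower and 0 higher. Of all tested genes, 1.37% were called lower and 1.74% higher. By sign alone, 10 of the 19 receptor genes were lower and 9 higher, and the median of their log2 fold changes was -0.003. Adora1, the A1 adenosine receptor that couples to Gi, fell from 28.7 ± 3.30 to 20.1 ± 1.85 CPM (SD, n = 3 each; log2 fold change -0.52, SE 0.10, edgeR adjusted p = 0.00151). F2rl1, the protease-activated receptor PAR2, was at 49.2 ± 2.10 CPM in WT and 41.8 ± 1.40 CPM in C75S (edgeR adjusted p = 0.0433) but lost its call in 8 of 12 alternatives, with adjusted p up to 0.199. The vasopressin, alpha-1 adrenergic and angiotensin receptors that signal through Gq, the class Rgs2 prefers, were not called. Avpr1a, the vasopressin receptor, had the largest estimate of these 3, -0.57 (SE 0.22, edgeR adjusted p = 0.211). Adra1b, the main alpha-1 adrenergic receptor of mouse liver, was at 0.09 (SE 0.13, edgeR adjusted p = 0.838), and Agtr1a, the angiotensin receptor, at -0.13 (SE 0.09, edgeR adjusted p = 0.612). These 3 receptors are named outside the rule for named genes, after their values were seen.

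For the G protein subunits themselves, 0 of 10 tested alpha and 0 of 6 tested beta and gamma genes were called. None had an unadjusted p under 0.05 in edgeR, where 13.4% of all tested genes did. Gnas (555 ± 5.57 CPM in C75S, 540 ± 23.3 CPM in WT), Gnai2 (268 ± 6.31 and 258 ± 2.19 CPM) and Gnai3 (212 ± 5.80 and 212 ± 3.38 CPM) were the most abundant alpha genes (SD, n = 3 each). Gnb1, Gng12 and Gnb2 led the beta and gamma genes, with log2 fold changes of 0.04 to 0.06. Among 11 tested effectors of Gq, 1 was called, where 3.11% of all tested genes were. By sign, 5 of these effector genes were higher in C75S and 6 lower. The median of their log2 fold changes was -0.02. Itpr3, an inositol trisphosphate receptor of the endoplasmic reticulum, rose from 10.2 ± 0.30 to 15.2 ± 1.30 CPM (SD, n = 3 each; log2 fold change 0.57, SE 0.11, edgeR adjusted p = 0.00251). Itpr3 kept its call in all 12 alternatives, with adjusted p up to 0.0195.

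Of the 16 tested genes of cAMP synthesis, breakdown and protein kinase A, 0 were called and 1 had an unadjusted p under 0.05 in edgeR. Over all tested genes these shares were 3.11% and 13.4%. The regulatory subunits Prkar1a and Prkar2a and the phosphodiesterase Pde3b, the most abundant of these, had log2 fold changes of 0.03, -0.01 and -0.08. Among 14 tested cAMP-responsive genes 7 were higher and 7 lower in C75S by sign, with a median log2 fold change of 0.01. Of these 14, 1 was called, where 3.11% of all tested genes were. The called gene was G6pc, the catalytic subunit of glucose-6-phosphatase. G6pc was at 1.26, 1.42 and 2.25 CPM in C75S against 4.46, 3.12 and 2.62 CPM in WT (log2 fold change -1.05, SE 0.27, edgeR adjusted p = 0.0307). Leaving out a library ended its call in 4 of 6 cases, with adjusted p up to 0.171 without WT replicate 1.

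Genes of proteins with an RGS-homology domain and of other regulators of alpha subunits showed no call. Of 13 tested genes with an RGS-homology domain, 0 were called and 2 had an unadjusted p under 0.05 in edgeR, against 13.4% of all tested genes. Arhgef12, a guanine nucleotide exchange factor driven by G12 and G13, was the most abundant at 337 ± 3.16 CPM in C75S against 364 ± 3.91 CPM in WT (SD, n = 3 each; log2 fold change -0.11, SE 0.05, edgeR adjusted p = 0.27). Arhgef11 and Arhgef1, of the same kind, were at 0.03 and 0.00. Of 11 tested other regulators of alpha subunits, 0 were called and 2 had an unadjusted p under 0.05 in edgeR. Gipc1, the PDZ protein that binds Rgs19, was at 53.8 ± 4.79 CPM in C75S against 48.0 ± 2.53 CPM in WT (SD, n = 3 each; log2 fold change 0.16, SE 0.07, edgeR adjusted p = 0.27). Nucb1 and Ric8a, the latter a chaperone of alpha subunits, were at 0.06 and 0.02.

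**Figure D4:**
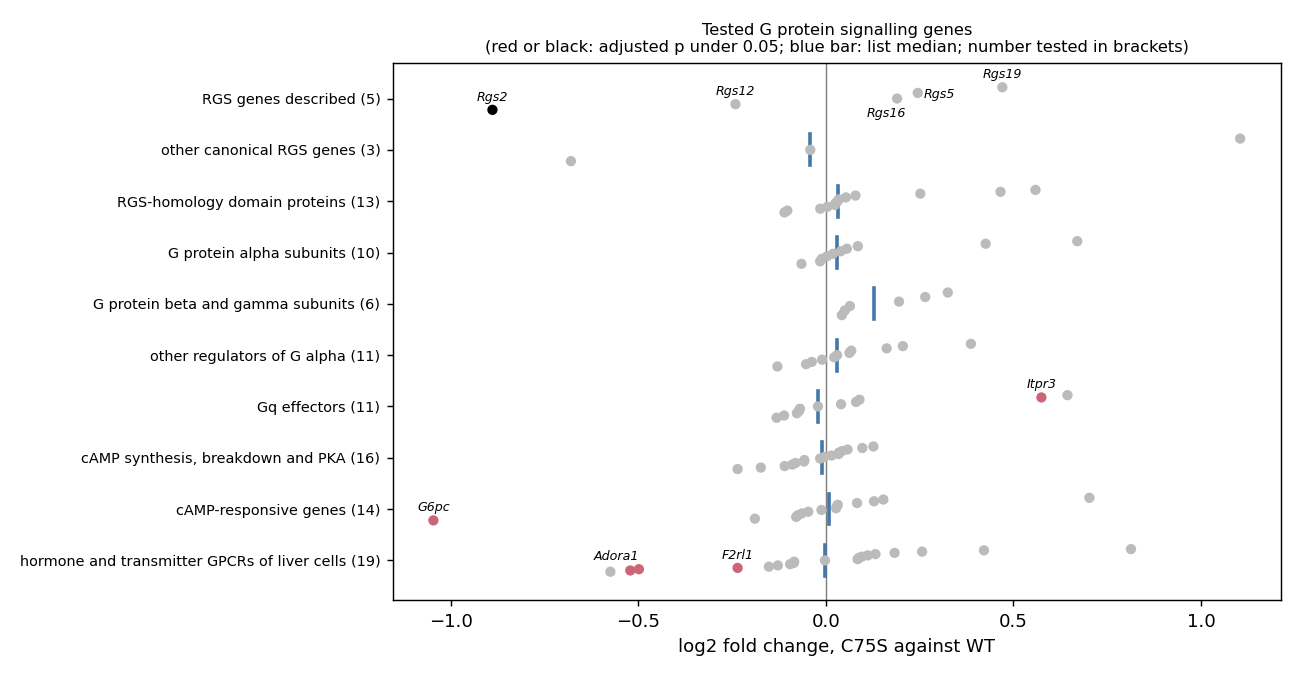
Log2 fold change of C75S against WT (horizontal axis) for the 5 tested RGS genes and the tested members of 9 G protein signalling lists, 1 point per gene, with list medians as blue bars. Rgs2 is at the left of its row, 5 list genes are called (red; 4 are labelled), and the list medians lie between -0.04 and 0.13.

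Markers of other cell types that moved with the genotype are given beside these results. The 10 cholangiocyte markers summed to 248 to 315 CPM in C75S and 206 to 215 CPM in WT, without overlap. Of the 7 tested genes 1 was called and 4 had an unadjusted p under 0.05 in edgeR, against 3.11% and 13.4% of all tested genes. Their median log2 fold change was 0.47, with 5 genes higher and 2 lower in C75S. The called gene, Krt19, a biliary keratin, rose from 5.47 ± 0.26 to 9.52 ± 1.22 CPM (SD, n = 3 each, edgeR adjusted p = 0.00151). Krt19 was a small part of the summed CPM, most of which came from other markers of the list. Cftr had 0 reads and Epcam 22 over all libraries. The 12 endothelial markers summed to 44.4 to 54.9 CPM in C75S and 42.9 to 55.8 CPM in WT. Here 0 of 9 tested genes were called and 2 had an unadjusted p under 0.05 in edgeR. The shares over all tested genes were 3.11% and 13.4%. By sign, 6 of these endothelial genes were higher in C75S and 3 lower. The median of their log2 fold changes was 0.24. The groups did not overlap in 3 of the 9, where 18.0% of all tested genes showed no overlap. The part of such cells in the Rgs2 difference was not tested.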

How the data were processed

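RNA was sequenced from 3 AEG-1-C75S and 3 WT hepatocyte libraries, grouped by sample title. The deposited files give unnormalised read counts for each Ensembl gene, in the layout of STAR. Per the submitters' processing notes, Trim Galore 0.6.6, STAR 2.7.9a, edgeR 3.36.0 and GRCm38 (mm10) were used; the annotation release is not given in the sources used here. The reverse-strand counts were analysed, being 32.9 to 33.9 times the forward-strand totals; the 4 summary rows were dropped. Multimapping reads (17.98% to 18.5%) were not counted to genes. Symbols, positions and exon lengths are from GENCODE M21 (55227 of 55487 identifiers matched), and promoters from RefSeq (6 of the 7 genes).

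Genes were filtered with filterByExpr (minimum count 10, minimum total 15), leaving 12741, and TMM-scaled. The test was that of edgeR 4.0.16 (in R 4.3.3; robust quasi-likelihood fit, genotype only, two-sided, Benjamini-Hochberg, threshold 0.05). The standard error is the log2 fold change over the square root of F. Log2 CPM used a prior count of 2. The procedure was tested on simulated data. The genes and lists were chosen with earlier results of these data known. Named genes were the 7, up to 5 called genes per list or else its 3 most abundant, tested genes within 1 Mb of Rgs2, and the 5 of most similar pattern, skipping predicted genes; 1 called gene is not reported here. Alternatives were RLE and library-size scaling, DESeq2 1.42.0, no filter, unstranded counts, a replicate block and leaving out each library.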

Additional observations from a re-analysis of the deposited data

How the results depend on the processing

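Over the 12 alternatives the log2 fold change of Rgs2 ranged from -0.96 to -0.79, and those of Rgs5, Rgs12, Rgs16 and Rgs19 moved by less than their within-group SD. Leaving out each library gave 201 to 355 called genes against 396 (201 without WT replicate 2, 246 without WT replicate 3, 253 without C75S replicate 1), 3 to 5 called signalling genes against 5, and 2 to 5 called markers against 4. With all libraries the count of called genes ran from 387 (DESeq2) to 573 (no filter). Same-numbered libraries did not deviate together (correlations of 0.02, -0.04 and 0.03), so the numbers were not taken as pairs; a replicate block gave 480 called genes, 5 signalling genes, 6 markers and -0.89 for Rgs2. No fold change was fitted for Rgs3 and Rgs14 with the filter. Depth limits Rgs5, Rgs16 and Rgs19, whose counting error per library was 13.6% to 23.6%.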

Other observations

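Some low RGS genes outside the 7 are given as read counts, chosen after their values were seen. Rgs10, an R12 protein of immune cells and brain, had 3, 4 and 3 reads in C75S replicates 1 to 3 and 11, 7 and 6 in the WT replicates, and did not pass the filter. Rgs7, an R7 protein of neurons, had 10, 11 and 11 reads in C75S and 6, 3 and 7 in WT (log2 fold change 1.10, SE 0.55, edgeR adjusted p = 0.386). Rgs20, of the RZ subfamily with Rgs19, had 8, 10 and 6 reads in C75S and 14, 17 and 11 in WT (log2 fold change -0.68, SE 0.47, edgeR adjusted p = 0.588). The groups of reads did not overlap in any of these 3 genes, where 18.0% of all tested genes showed no overlap in CPM. Because the 3 were chosen after their values were seen, this says nothing about the family. Rgs7 and Rgs20 also reached the filter mainly through the group in which they were higher. Rgs4, the neighbour of Rgs5 on chromosome 1, had 1 to 5 reads in each library.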
